A study of Mus musculus with 12 samples.

Results

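The messenger RNAs of Mcl1 and 9 further genes of the Bcl2 family were examined in livers in which the microRNA miR-29 had been inhibited. The genes were taken by symbol, and all 10 were found among the 21705 genes of the deposited table: Mcl1, Bcl2 and Bcl2l1, which restrain apoptosis; Bak1, which forms pores in the mitochondrial outer membrane; and Bid, Bcl2l11, Bbc3, Bmf, Bad and Hrk, which carry only a BH3 domain and promote apoptosis. The livers came from female C57BL/6J mice of 10 to 12 weeks, 6 given saline and 6 given LNA29, a pair of locked nucleic acids (modified antisense oligonucleotides) directed at miR-29a and at miR-29b and miR-29c, each at 20 mg/kg. Both groups were dosed through the tail vein, fasted for 18 h and killed on day 7. No mutation is named for either group, and none of the 12 livers came from a mouse given another locked nucleic acid, so binding of miR-29 and receipt of an oligonucleotide cannot be told apart.

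Proteins of the Bcl2 family decide whether the outer membrane of mitochondria stays closed. Mcl1, Bcl-2 and Bcl-xL (the product of Bcl2l1) hold Bax and Bak in check, and BH3-only proteins such as Bim (Bcl2l11), Puma (Bbc3) and Bid engage them when a cell is damaged. Hepatocytes depend on Mcl1 and Bcl-xL together for survival. Mcl1 protein is short-lived, and its level was not measured here. MicroRNAs of the miR-29 family bind messenger RNAs mainly through the seed, bases 2 to 8, and lower their translation and stability. Mcl1 and several BH3-only genes have been described as miR-29 targets in other cell types.

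The 3 mature miR-29 sequences of the mouse are shown because a single seed, in capitals, joins them (RefSeq, GRCm38.p6, 5′ to 3′). Mature miR-29a is encoded on the minus strand at chr6:31062673-31062694. Mature miR-29c is encoded on the plus strand at chr1:195037600-195037621. Mature miR-29b has a copy beside each of them, at chr6:31063025-31063047 on the minus strand and at chr1:195037091-195037113 on the plus strand.
miR-29a-3p: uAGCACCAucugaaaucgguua
miR-29b-3p: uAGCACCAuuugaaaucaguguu
miR-29c-3p: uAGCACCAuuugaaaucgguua
Counted from the 5′ end, miR-29a and miR-29c differ by C10U, and miR-29a and miR-29b by C10U, G18A, U21G and A22U over their shared length. All of these lie outside the seed.

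The complement of the seed, TGGTGCT, was searched on the coding strand of annotated 3′ UTRs, taking the longest for each gene (GENCODE M21, GRCm38). It was found in 6 of the 10 genes, against 2755 of all 21011 genes with a 3′ UTR (13.1%) and 15.6% of the genes tested below. Mcl1 and several BH3-only genes were already described as miR-29 targets, so this share does not describe the family at large. Of other family and BH3-like genes, Bcl2l2 and Bcl2l13 held 2 matches each and Becn1 held 1, while Bax, Bok, Bnip3 and Pmaip1 held none. Length was not matched in the comparison with all genes: the median 3′ UTR was 961 bases over all genes and 1147 over those tested, and the 6 members with a match had between 971 and 5068. In 4 of the 6 an A followed the match, the 8-base form TGGTGCTA, which 2.85% of all genes held. Shown here are the matches with the 8-base form in genes over the floor of 3 reads, and that of Bcl2l11 for the difference described below, with the seed complement in capitals, in the sense of the messenger RNA. The coordinates are those of the capitals.
Mcl1, exon 3 of 3, plus strand, chr3:95661859-95661865: tagagtcttaaccaTGGTGCTat
Bak1, exon 6 of 6, minus strand, chr17:27020737-27020743: accccaacattgcaTGGTGCTac
Bmf, exon 5 of 5, minus strand, chr2:118531357-118531363: gtaaggaaagacatTGGTGCTat
Bcl2l11, exon 4 of 4, plus strand, chr2:128158413-128158419: tcatgtccctctctTGGTGCTgc
The Mcl1 match began at base 1036 of a 3′ UTR of 2353 bases, that of Bak1 at base 188 of 1121, that of Bmf at base 1195 of 3801, and that of Bcl2l11 at base 84 of 4218. Bbc3 held 2 matches without an A after them, at bases 316 and 401 of 971. Hrk held 3 matches, at bases 669, 692 and 867 of 5068, of which the middle one had the A. No match lay in the 3′ UTRs of Bcl2 (5086 bases), Bcl2l1 (1477), Bid (1427) or Bad (1026), which says only that these letters are not in these windows.

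The 10 genes lie at separate loci. By GENCODE M21 on GRCm38, Mcl1 (Entrez 17210) spans chr3:95658788-95663176 on the plus strand, Bak1 (12018) chr17:27019810-27029009 on the minus strand, Bcl2l1 (12048) chr2:152780668-152831728 on the minus strand and Bcl2l11 (12125) chr2:128126038-128162547 on the plus strand. Bak1, Bid and Bad each overlap a protein-coding gene on the opposite strand, and Mcl1, Bcl2l1, Bcl2l11, Bbc3, Bmf and Hrk overlap no annotated gene.

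**Figure D1:**
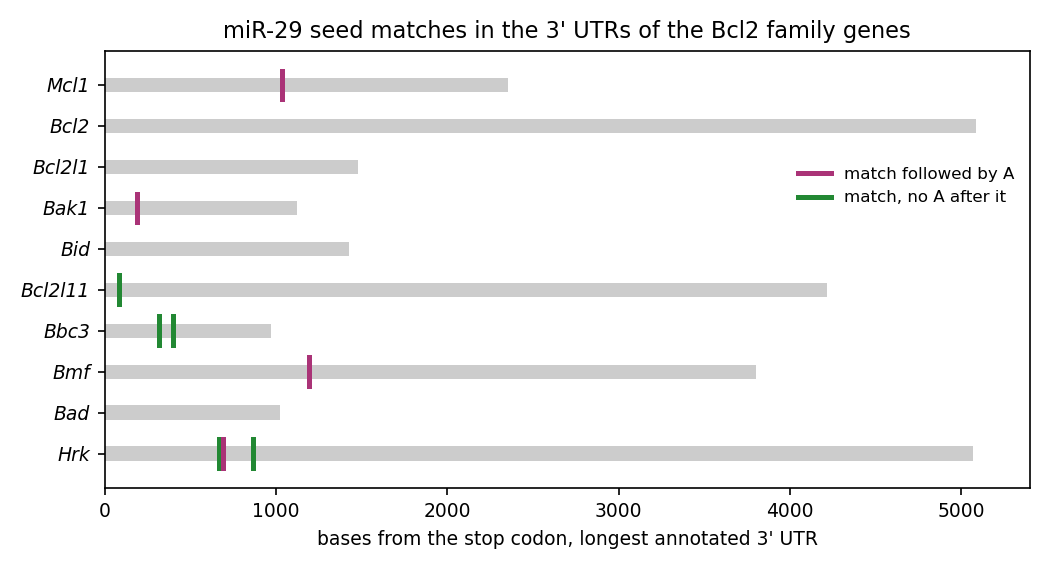
Grey bars give the length of the 3′ UTR used for each gene, in bases from the stop codon, and vertical marks are matches to the complement of the miR-29 seed, coloured by whether an A follows. Mcl1, Bak1 and Bmf each hold 1 match followed by an A, Hrk holds 1 of 3, and Bcl2, Bcl2l1, Bid and Bad hold none.

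Libraries of polyadenylated RNA were sequenced as single reads. A deposited value is a read estimate per gene scaled to an upper quartile of 1000 among genes that have reads, and a gene without reads is listed at 1. Livers held between 7696097 and 19062448 reads on genes, and 1 read was worth between 9.80 and 24.4 of these units. Depth was lower in the LNA29 group, with a median of 9123465 reads against 12011976 in saline livers. The median worth of 1 read was 18.4 units in LNA29 and 12.9 in saline livers. Read numbers given below are therefore not a comparison of the groups. The messenger RNA of collagen Col3a1, a known miR-29 target that served to check the labels, rose from 222 ± 57.6 to 650 ± 253 (SD, n = 6 each; log2 fold change 1.48, limma adjusted p = 0.0438) with no overlap between the groups, while Col1a1 gave 228 ± 80.4 and 392 ± 199 (limma adjusted p = 0.688). Saline replicate 49 stood apart in albumin, which took 35.7% of its reads against 43.6% to 46.9% in the other saline livers. All 7 hepatocyte markers were present in every liver, and of the 45 tested markers of 9 cell types none had a limma adjusted p under 0.05. In bulk tissue, fewer cells of a type and less RNA per cell cannot be told apart.

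No member of the family passed the test over all genes. limma was fitted to log2(value + 1) for the 12486 genes whose mean value was 10 or more. For each member a two-sided exact permutation test was added, which runs over 924 divisions of the 12 livers and cannot give a p below 0.00216. Of the 10 members, 8 had more than 3 reads, rounded to whole reads, in at least 1 liver and are given a fold change. Of these, 0 had a limma adjusted p under 0.05 (smallest 0.614), where 20 of all genes tested did (0.16%), 9 higher and 11 lower. At an unadjusted limma p under 0.05 there were 2, Mcl1 and Bcl2l11, where 7.91% of all genes were at that level. In none of the 8 did all LNA29 livers lie above or below all saline livers, which held for 0.985% of all genes. The log2 fold change was positive for 4 members and negative for 4, with a median of 0.013, beside -0.093 over all genes tested. By role, the 2 anti-apoptotic genes over the floor of 3 reads and Bak1 had positive values, and of the 5 BH3-only genes over it 4 had negative values. The median of all genes was negative too, so a negative sign is not particular to the BH3-only genes. Scaling the livers to a common median instead turned no sign. Without LNA29 replicate 48 the signs of Bbc3 (0.0098) and Bad (-0.0062) turned, and with array weights Bmf was at -0.0022. By the ratio of group means Bak1 (1.39) and Mcl1 (1.30) stood highest of the 8, and Bcl2l11 (0.641) and Bmf (0.651) lowest.

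**Figure D2:**
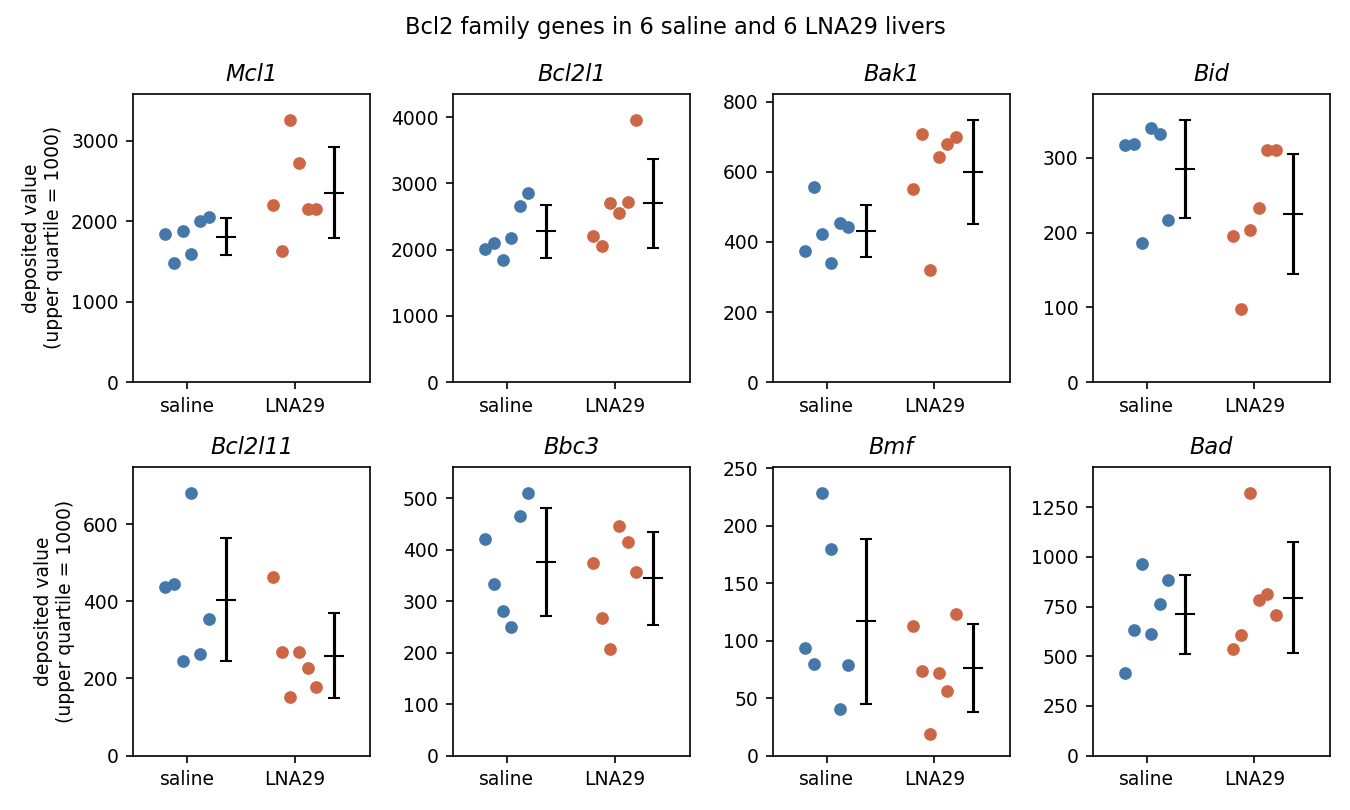
Points are the deposited values (upper quartile of genes with reads = 1000) of 6 saline and 6 LNA29 livers for the 8 members given a fold change, ordered by replicate number within a group, with the mean and SD beside them. Mcl1 and Bak1 sit higher in most LNA29 livers, Bcl2l11 sits lower in most, and every gene overlaps between the groups.

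Mcl1 protects hepatocytes from apoptosis. In saline livers its values ran from 1476 to 2059 with a median of 1860, and in LNA29 livers from 1634 to 3264 with a median of 2175. In 5 of the 6 LNA29 livers Mcl1 lay above every saline liver. The exception, LNA29 replicate 46, lay within the saline range, and replicates 48 (3264) and 50 (2732) were the highest. Means were 1809 ± 228 and 2355 ± 565 (SD, n = 6 each), and the log2 fold change was 0.36 with a standard error of 0.16 and a 95% interval of 0.011 to 0.70. The difference had an exact permutation p of 0.0476 and a limma adjusted p of 0.614. As a fold the interval runs from 1.01 to 1.63. Reads on Mcl1 numbered 93 to 210 per saline liver and 67 to 176 per LNA29 liver. Counting error alone would give a coefficient of variation of 8.49% in saline and 8.63% in LNA29 livers, and the livers varied by 12.6% and 24.0%, so that most of the spread among LNA29 livers lay beyond counting error. Without LNA29 replicate 48 the log2 fold change was 0.26 (exact permutation p = 0.0952).

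Among the members compared per length, which leave out Bax, Bcl2l1 had the highest median level in both groups. Bcl2l1 encodes Bcl-xL and had no seed match. Its values ran from 1842 to 2853 with a median of 2138 in saline livers and from 2049 to 3959 with a median of 2626 in LNA29 livers. Only LNA29 replicate 54 exceeded all saline livers. Means were 2274 ± 394 and 2698 ± 674 (SD, n = 6 each), with a log2 fold change of 0.23 (95% interval -0.12 to 0.58, exact permutation p = 0.210). Without replicate 54 it was 0.11. Bcl2 itself, the gene that names the family, was near the limit of these libraries. Each liver held 0 to 3 reads after rounding (3.4 before it in saline replicate 45). There were 11 reads in all over the saline livers and 7 over the LNA29 livers, the group with the lower median depth. Of the livers, 1 saline and 3 LNA29 had none, which does not show that the messenger RNA was absent. No fold change is given for Bcl2.

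Bak1 encodes Bak, which is held by Mcl1 and Bcl-xL until a BH3-only protein releases it. Saline livers ranged from 340.0 to 556 with a median of 431, and LNA29 livers from 321 to 707 with a median of 661. Of the LNA29 livers 4 lay above every saline liver, and replicate 48, at 321, lay below every one. Means were 431 ± 74.4 and 600 ± 148 (SD, n = 6 each), and the log2 fold change was 0.44 (95% interval -0.015 to 0.90, exact permutation p = 0.0628, limma adjusted p = 0.652). Without LNA29 replicate 48 it was 0.61 (exact permutation p = 0.00866, limma adjusted p = 0.254). With values beyond 1.5 SD of their group mean discarded throughout, it was 0.69 with a limma adjusted p of 0.0308, the only setting in which a member passed the test over all genes. That setting called 217 genes in place of 20. Discarding the values farthest from their group mean narrows the spread that the test uses, so this p cannot be taken at its level. It discards saline replicate 45 (556), the highest saline liver, together with LNA29 replicate 48. Without saline replicate 45 alone the value was 0.52 (exact permutation p = 0.0390). The low value of LNA29 replicate 48 rests on 17 reads of Bak1. Bak1 overlaps Ggnbp1 on the opposite strand, and the strand setting of the counts is not given in the sources used here. Ggnbp1 was highest in the same liver, at 526, where the other LNA29 livers ran from 195 to 244. The reads of Bak1 were whole numbers in every liver. Whether reads were exchanged between the 2 genes was not tested.

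Bcl2l11 encodes Bim, a BH3-only protein that binds all anti-apoptotic members. Its values in saline livers ran from 246 to 680.0 with a median of 395, and in LNA29 livers from 151 to 463 with a median of 247. In 3 LNA29 livers Bcl2l11 lay below every saline liver, while LNA29 replicate 44 (463) lay above 5 of the 6 saline livers. Means were 404 ± 159 and 259 ± 110 (SD, n = 6 each), and the log2 fold change was -0.65 with a standard error of 0.30 and a 95% interval of -1.28 to -0.0094. The unadjusted limma p was 0.0471, the limma adjusted p 0.621 and the exact permutation p 0.0758. Bcl2l11 was the 1 member of 10 past the thresholds of the methods, group means that differ by 1.5-fold in either direction with a one-tailed p of 0.05 or less. Its ratio of means was 0.641, and 5.84% of all genes with a p passed these thresholds. Saline replicate 49, the liver with the low share of albumin, had the highest value. Without it the log2 fold change was -0.48 (exact permutation p = 0.152), and without LNA29 replicate 44 it was -0.83 (exact permutation p = 0.0260). Reads numbered 14 to 68 in saline livers and 8 to 37 in LNA29 livers.

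**Figure D3:**
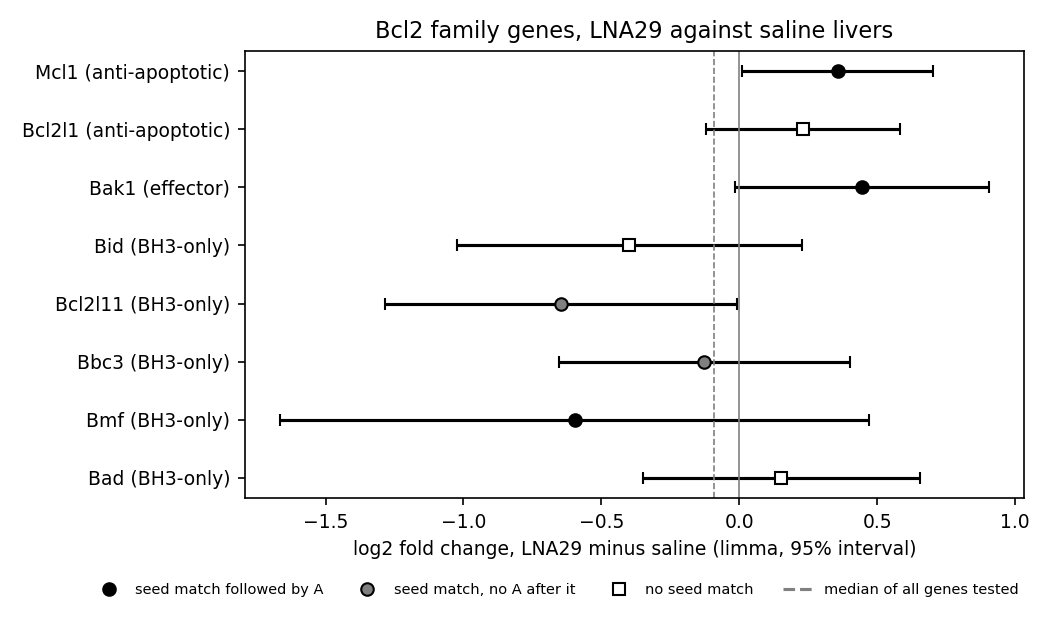
Points are log2 fold changes (LNA29 minus saline, limma on 6 livers a group) of the 8 members over the floor of 3 reads, with 95% intervals, and the symbol gives the kind of miR-29 seed match in the 3′ UTR. The dashed line is the median of all genes tested, -0.093. Only the intervals of Mcl1 and Bcl2l11 leave out 0, on opposite sides.

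Among the other BH3-only genes none had an unadjusted limma p or an exact permutation p under 0.05. Bid links death receptors to mitochondria once it is cleaved. It ran from 186 to 340.0 in saline livers (median 317) and from 97.6 to 310.3 in LNA29 livers (median 218), and all 6 LNA29 livers lay below the saline median. The groups nevertheless overlapped over most of their range, with a log2 fold change of -0.40 (95% interval -1.02 to 0.23, exact permutation p = 0.201). Without LNA29 replicate 46, the lowest liver, it was -0.18. Bid overlaps Bcl2l13 on the opposite strand, and its reads were not whole numbers in 5 saline and 4 LNA29 livers. The source of the fractions was not tested. Bcl2l13 gave 743 ± 255 and 640 ± 194 (SD, n = 6 each; limma adjusted p = 0.891).

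Bbc3 encodes Puma, a target of p53. It ran from 250.0 to 510 in saline livers (median 378) and from 208 to 446 in LNA29 livers (median 366), with a log2 fold change of -0.13 (95% interval -0.66 to 0.40, exact permutation p = 0.604). Bmf, which senses loss of cell attachment, ran from 40.4 to 228 (median 86.6) and from 18.9 to 123 (median 72.3), on 1 to 18 reads per liver. The interval of its log2 fold change, -1.66 to 0.47 around -0.60, was the widest of the 8. The value was -0.0022 with array weights, -0.011 with values beyond 1.5 SD discarded, -0.25 without LNA29 replicate 48, the lowest liver, and -0.36 without saline replicate 47, the highest. Counting error alone would give a coefficient of variation of 34.5% in saline and 46.8% in LNA29 livers. Bad, whose binding to Bcl-xL is blocked by phosphorylation, ran from 414 to 965 in saline livers (median 697) and from 538 to 1321 in LNA29 livers (median 747). Bad had a log2 fold change of 0.15 (95% interval -0.35 to 0.65, exact permutation p = 0.574), and without LNA29 replicate 48, the highest liver, it was -0.0062. Bad overlaps Gpr137 on the opposite strand, which gave 918 ± 132 and 829 ± 147 (SD, n = 6 each; limma adjusted p = 0.878). Hrk, a gene mainly of neurons, had 0 to 2 reads in every liver, 2 in all over the saline group and 5 over the LNA29 group, so its 3 seed matches could not be set beside a difference.

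The spread between livers was set beside counting error, which covers only the drawing of reads and not the handling of the tissue. For Bak1 the coefficient of variation was 17.3% in saline livers, where counting alone gives 17.6%, and 24.7% against 17.2% in LNA29 livers. For Bid it was 23.1% against 21.3% and 35.7% against 27.5%. In the saline group both were thus close to counting error, and in the LNA29 group both lay above it. Bcl2l11 varied more, by 39.4% against 17.8% in saline livers and 42.6% against 25.7% in LNA29 livers. Bad varied by 28.2% against 13.6% and 34.9% against 15%, and Bcl2l1 by 17.3% against 7.48% and 25% against 8.0%.

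The members with a seed match did not share a direction. Mcl1, Bak1 and Bmf, each with a match followed by an A, had log2 fold changes of 0.36, 0.44 and -0.60, the last near 0 with array weights. Over the 367 tested genes with such a match the median was 0.021, with 37 higher and 2 lower at an unadjusted limma p under 0.05. Bcl2l11 and Bbc3, with matches that lack the A, had -0.65 and -0.13, where the median of the 1365 genes of that kind was -0.067. At the same unadjusted level 37 of those genes were higher and 66 lower. Bcl2l1, Bid and Bad, without a match, had 0.23, -0.40 and 0.15, where the median of 9354 genes was -0.10, with 138 higher and 602 lower. These values are a description, and a match alone does not show binding.

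Levels of the members were compared with each other per kilobase of the longest annotated transcript. In saline livers the median level per kilobase was 832 for Bcl2l1, whose lowest liver (717) lay above the highest for Mcl1 (602). Mcl1 (544), Bad (455), Bbc3 (208) and Bak1 (181) followed, and each overlapped its neighbour in this order. Bid (131), Bcl2l11 (78.5) and Bmf (18.6) came next, with a gap between Bak1 and Bid and overlaps after it. That gap was narrow, between 142.4 in the lowest liver for Bak1 and 140.8 in the highest for Bid. With the length of the transcript with the longest coding sequence, Bid reached 155 and the gap closed. Bcl2 and Hrk were lowest, with almost no reads. In LNA29 livers Bcl2l1 (1023), Mcl1 (636) and Bad (487) came first again with overlapping ranges and a gap below Bad, and Bak1 (277) stood before Bbc3 (202) with overlapping ranges. In both groups the anti-apoptotic Bcl2l1 and Mcl1 headed the order by median. Bax and the other family genes outside the members were not placed in it, so the order does not cover the whole family.

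**Figure D4:**
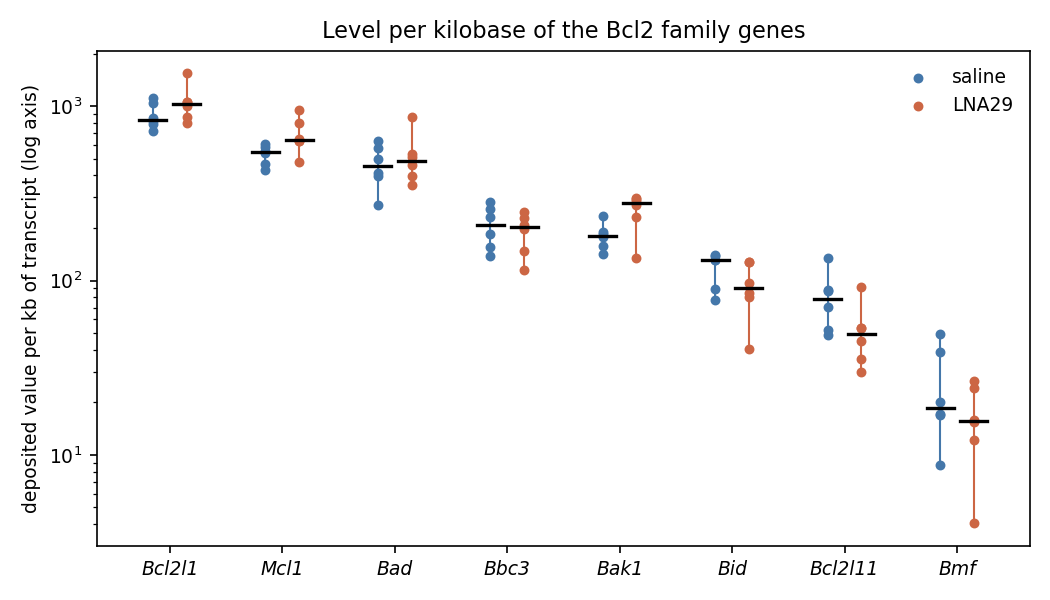
Points are the deposited values per kilobase of the longest annotated transcript in each of 6 saline and 6 LNA29 livers, on a log axis, with a black bar at the median, for the 8 members given a fold change. Medians in saline livers run from 832 for Bcl2l1 to 18.6 for Bmf.

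The level of Mcl1 relative to Bcl2l11 within a liver, both per kilobase, ran from 3.47 to 11.3 in saline livers (median 7.40) and from 7.01 to 31.9 in LNA29 livers (median 14.5). The ranges overlapped, and the highest ratio belonged to LNA29 replicate 48, which had the most Mcl1 and the least Bcl2l11 of its group. Mcl1 relative to Bak1 ran from 1.86 to 3.43 (median 3.19) and from 1.61 to 7.11 (median 2.50). Bak1 relative to Bcl2l11 ran from 1.05 to 3.65 (median 2.64) and from 2.51 to 8.28 (median 5.31). For Bcl2l1 relative to Bcl2l11 the medians were 11.98 in saline and 21.1 in LNA29 livers, with overlapping ranges. Mcl1 relative to Bcl2l1 had medians of 0.559 and 0.673, also with overlapping ranges. A higher median relative to Bcl2l11 in LNA29 livers was therefore not particular to Mcl1. These ratios were chosen after the values had been seen and were not tested.

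LNA29 replicate 48 was the highest or lowest of its group for 6 of the 8 members. It was highest for Mcl1 and Bad and lowest for Bak1, Bcl2l11, Bbc3 and Bmf. In the saline group replicate 47 was at an end for 5 members and replicate 49 for 4. Leaving out each liver in turn moved the log2 fold change of Mcl1 between 0.26 and 0.46, that of Bak1 between 0.38 and 0.61, and that of Bcl2l11 between -0.83 and -0.48. No direction turned for these 3 genes, but for Mcl1 the exact permutation p passed 0.05 in 9 of the 12 cases, reaching 0.0952, and was 0.00433 without LNA29 replicate 46.

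**Figure D5:**
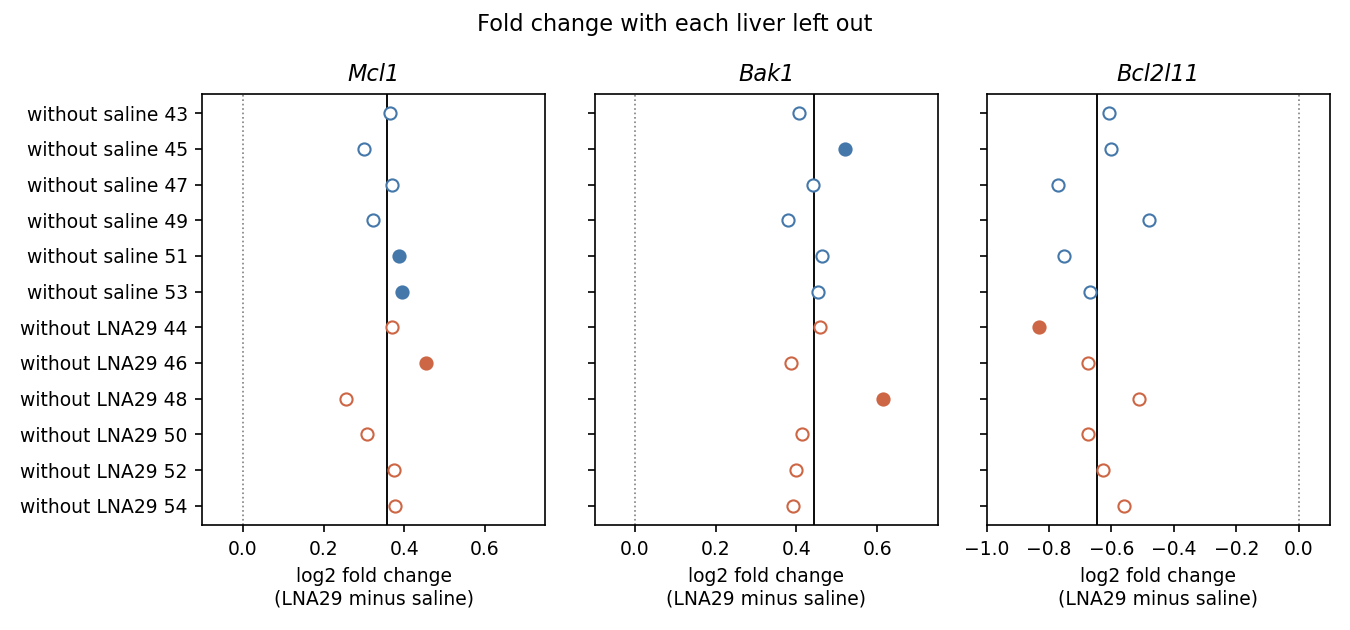
Each point is the log2 fold change (LNA29 minus saline) of Mcl1, Bak1 or Bcl2l11 with the liver named at the left removed, filled where the exact permutation p is under 0.05. The solid line is the value over all 12 livers and the dotted line is 0. Mcl1 lies between 0.26 and 0.46.

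Around the family, 10 lists of 99 genes of the same pathway were read in the same fit, of which 89 were tested. At an unadjusted limma p under 0.05 there were 4 higher and 1 lower (5.62%, against 7.91% of all genes), and none had an adjusted p under 0.05. The median log2 fold change was -0.018. Among the other pore-forming genes Bok, a Bak relative, gave 209 ± 44.3 and 309 ± 73.4 (SD, n = 6 each; log2 fold change 0.56, limma adjusted p = 0.606). Bax, the partner of Bak, gave 1010 ± 341 and 1312 ± 367 (exact permutation p = 0.171, SD, n = 6 each). Of the BH3-like genes Bnip3, which marks mitochondria for removal, gave 2771 ± 355 and 3656 ± 811 (SD, n = 6 each; log2 fold change 0.38, limma adjusted p = 0.574), and Pmaip1, the partner of Mcl1 known as Noxa, had at most 2 reads in a liver.

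Ppif encodes cyclophilin D, a regulator of the mitochondrial permeability pore. It ran from 984 to 1606 in saline livers and from 1700 to 2098 in LNA29 livers, so that the groups did not overlap. The log2 fold change of Ppif was 0.47, with a limma adjusted p of 0.318. Its exact permutation p of 0.00216, the smallest possible, only restates the lack of overlap, a ground on which genes of the lists were named. Groups did not overlap for 0.985% of all genes tested. Atf4, a stress-induced transcription factor, gave 2037 ± 530 and 2545 ± 203 (SD, n = 6 each; log2 fold change 0.36, limma adjusted p = 0.631). The 1 gene that was lower at the unadjusted level was Aifm1, which encodes apoptosis-inducing factor, with 2335 ± 372 and 1779 ± 369 (SD, n = 6 each; log2 fold change -0.40, limma adjusted p = 0.503). None of the 9 tested genes of Mcl1 protein turnover, among them ligases and deubiquitinases that act on the protein, had an unadjusted limma p under 0.05, nor had any of the 12 tested death receptor genes, 6 tested inhibitors of apoptosis or 14 partners and kinases of Bad.

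Among the cell type markers 1 had an unadjusted limma p under 0.05, Marco, a scavenger receptor of macrophages. Marco gave 514 ± 241 and 1257 ± 1081 (SD, n = 6 each; log2 fold change 1.08, limma adjusted p = 0.391) and was highest in LNA29 replicate 54, at 3425, which was also the highest liver for Bcl2l1. The 8 Kupffer cell and macrophage markers together had a summed value of 8609 to 15737 in the saline group and 8339 to 16945 in the LNA29 group, and 2 of the 8 had positive log2 fold changes. The part of macrophages in the values of Bcl2l1 was not tested.

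The genes whose pattern over the 12 livers was most like that of Mcl1 were Capn1 (Pearson r = 0.93), H2afv (0.93), Suv420h2 (0.92), Il11ra1 (0.92) and Cltb (0.91), among 8989 genes with a mean of 100 or more, each liver shifted to a common median. With saline replicate 49 and LNA29 replicate 48 left out, the livers farthest from the median of Mcl1, r was between 0.78 and 0.86 for these 5. Within the family r with Mcl1 was 0.75 for Bad, 0.61 for Bcl2l1, 0.15 for Bbc3, 0.12 for Bak1, -0.026 for Bid and -0.71 for Bcl2l11. Without those livers it was 0.50, 0.47, 0.55, 0.25, 0.12 and -0.40 in the same order, so that Bbc3 came first. Taken about the group means, r was -0.29 for Bak1, the reverse of its sign over all livers, and 0.23 for Bid. The points share libraries and their scaling, and the 5 genes were picked for their r, so the values are a description.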

How the data were processed

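Liver RNA of 6 saline and 6 LNA29 mice was sequenced by the authors as single reads from a TruSeq polyA kit. MapSplice2 was used by the authors for mapping and RSEM for quantification, and they deposited 1 signal value per gene and liver, scaled to an upper quartile of 1000. Build mm9 is named in the submitters' processing notes, and tool versions and the annotation are not given in the sources used here. Coordinates above are matches to GRCm38, not positions from the files. The deposited group means, folds and p-values of the authors were left out, as were 3 columns without a name.

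Between 91.9% and 93.6% of values were whole multiples of 1 read (within 0.02 reads), so reads are given as a description, and a floor of 3 reads was set below which no fold is given. RSEM splits reads between similar genes. limma 3.58.1 (R 4.3.3) with a trend was fitted on log2(value + 1) over genes whose mean was 10 or more. The fit was tested on simulated data with larger changes than those of the members, so that test does not cover changes of their size. P-values were adjusted by the method of Benjamini and Hochberg and called at 0.05. The authors' one-tailed thresholds were used as an alternative. Since a liver without reads is listed at 1, far under the worth of 1 read, folds of genes with such livers can be too large or too small. Members, lists and tests were chosen with earlier results of these data known. Named from the lists were genes with an unadjusted limma p under 0.05 or no overlap between the groups, and, after their values were seen, Bax, Pmaip1 and the opposite-strand neighbours. Bcl2l2 and Becn1 were named for their seed matches alone. Alternatives were pseudocounts of 0.1 and 10, other filters, a shift to a common median, array weights, discarding values beyond 1.5 SD, the thresholds of the methods and leaving out each liver. Python 3.11.15, numpy 2.4.6, scipy 1.17.1 and pandas 2.3.3 served for the rest.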

Additional observations from a re-analysis of the deposited data

Results flagged for a closer look

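In 1 of 16 groups of 6 values examined (8 members, 2 groups), a single liver lay far from the others by Dixon's criterion. Bak1 was 320.8 in LNA29 replicate 48, where the next liver was 550.0 and the highest 707.3, so that the gap was 0.682 of the range, above the critical value for 6 samples. Chance gives about 1 such group in 20, or 0.8 in 16.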

How the results depend on the processing

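Of 136 recalculated log2 fold changes of the 8 members, 113 kept their direction and their side of 0.05 in the exact permutation test (limma for array weights), 12 of Mcl1 crossed to above it, 7 of Bak1 and Bcl2l11 crossed to below it, and 4 turned in sign. The turns were Bbc3 at 0.0098 and Bad at -0.0062, each without LNA29 replicate 48 and with values beyond 1.5 SD discarded, settings that remove the same liver. With each liver left out Bbc3 lay between -0.235 and 0.0098 and Bad between -0.0062 and 0.253. For Mcl1 the log2 fold change was 0.40 (exact permutation p = 0.0736) after a shift to the common median and 0.30 with array weights (unadjusted limma p = 0.0581). It was 0.26 with values discarded, and between 0.26 and 0.46 with each liver left out.

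The 20 genes called became 10 after the shift (6 higher and 4 lower, against 9 and 11), 58 with array weights, 217 with values discarded, 883 by the thresholds of the methods and 1 to 29 with a liver left out, with 1 without saline replicate 43 or LNA29 replicate 50, 52 or 54. The shift moved the median of all genes from -0.093 to -0.048. Of the members, 2 had an unadjusted limma p under 0.05, and 1 (Bak1) with array weights, 1 (Bcl2l11) by the thresholds, and 0 to 2 with a liver left out, being 0 without saline replicate 43 or 49 or LNA29 replicate 50 or 52. After the shift and with values discarded there were again 2, but Bak1 and Bcl2l11. The cause was not tested. TMM factors, edgeR and DESeq2 on recovered reads were not run, since reads were not whole in every liver. No paired analysis was possible because the groups share no replicate numbers. Depth limits Bcl2 and Hrk entirely and Bmf, with 1 to 18 reads, nearly so.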
